A study of Mus musculus with 20 samples.

Results

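The genes described here are 41 interferon-stimulated effectors, genes whose products act against viruses, modify proteins or prepare peptides once interferon has signalled. They were chosen from the listed interferon-stimulated genes by name, as those outside the guanylate-binding and immunity-related GTPase, OAS, IFIT, TRIM, nucleic acid sensor and class I histocompatibility families. The rule uses no measured value, although it was set with earlier results of these data known. All 41 were among the 57180 Ensembl identifiers of the deposited table. The RNA came from punches of 2 brain regions of Mus musculus, the PVT, a midline thalamic nucleus, and the pIC, a part of the insular cortex. STZ mice had received streptozotocin, a toxin of pancreatic beta cells, as 1 dose of 200 mg/kg into the peritoneum, the model of painful diabetic neuropathy that the series names. Control mice had received vehicle, and tissue was taken at week 7 in both. There were 4 control and 6 STZ libraries from each region, 20 in all, and the sources used here do not give strain, sex or age.

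Interferons bind cell-surface receptors whose JAK kinases activate transcription factors. With IRF9 these form a complex that binds interferon-stimulated response elements (ISREs) near the genes it switches on, and many of these genes are also transcribed at a low tonic level without infection. The products include a ubiquitin-like modifier and its enzymes, proteins that hold back virus entry and release, ADP-ribosyltransferases, nuclear body proteins and proteasome activators. In brain, microglia, endothelium, astrocytes and neurons can all respond to interferon.

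The response element was looked for in the RefSeq promoter windows, which run from 250 bases before to 50 bases after a gene's start site (build GRCm38.p6, not the build of the count table). At least 1 window was found for 31 of the 41 genes, 42 windows in all, since 7 genes have 2 to 5, and none for Mx1, Mx2, Rtp4, Ifi27, Ifi27l2a, Parp9, Parp10, Parp14, Ifi204 and Tor3a. The letters searched, on both strands, were GAAANNGAA followed by A. They were present in at least 1 window of 11 of the 31 genes (35.5%), against 1079 of 27025 genes in the whole table (3.99%). Counted by window these were 12 of 42 (28.6%) against 1131 of 32851 (3.44%), and in Shisa5, Tdrd7 and Ifi203 only 1 of the windows of the gene held them. Of the 23 genes with a window that were called lower in either region (tests below), 9 held the letters, and of the 8 called in neither region 2 did, Tdrd7 and Psme1. The letters TTCNNNGAA of the gamma-activated site were in at least 1 window of 4 of the 31 genes (12.9%), Bst2, Ifitm3, Shisa5 and Ifi35, against 9.55% of all genes. A match describes letters and is not evidence of binding.

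The windows of Bst2, Xaf1, Dtx3l and Isg15 are printed because these were the genes with a window that had the smallest p in PVT among those given in full below. The window of Ifitm3 was added after the matches were seen, because its letters lie behind the start site. Capitals mark ISRE letters, and each sequence reads 5′ to 3′ on the strand of its gene. The first 4 show the 150 bases before the start site, and Ifitm3 shows 60 bases before to 30 bases after it.
Bst2, chr8:71537473-71537622, minus strand: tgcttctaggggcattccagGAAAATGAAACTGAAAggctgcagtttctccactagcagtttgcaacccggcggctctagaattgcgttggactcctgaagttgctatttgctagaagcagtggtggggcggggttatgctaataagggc
Xaf1, chr11:72301479-72301628, plus strand: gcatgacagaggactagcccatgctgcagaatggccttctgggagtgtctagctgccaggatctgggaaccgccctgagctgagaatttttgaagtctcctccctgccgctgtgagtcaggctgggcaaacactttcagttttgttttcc
Dtx3l, chr16:35939028-35939177, minus strand: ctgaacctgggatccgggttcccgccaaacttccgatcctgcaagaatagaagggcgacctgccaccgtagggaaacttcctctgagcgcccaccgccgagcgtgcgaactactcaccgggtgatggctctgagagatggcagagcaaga
Isg15, chr4:156200819-156200968, minus strand: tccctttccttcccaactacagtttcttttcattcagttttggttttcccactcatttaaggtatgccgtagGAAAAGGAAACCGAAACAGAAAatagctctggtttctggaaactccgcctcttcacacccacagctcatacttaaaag
Ifitm3, chr7:141010715-141010804, minus strand: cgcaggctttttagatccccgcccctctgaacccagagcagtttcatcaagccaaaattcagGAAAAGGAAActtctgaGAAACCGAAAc
In Bst2 2 matches overlapped, and in Isg15 3 overlapped, all on the strand of the gene. Ifitm3 held 2 matches within the first 30 transcribed bases. The windows of Xaf1 and Dtx3l held no match, which says only that these letters are not in this window.

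The libraries held 17.9 M to 25.5 M counts. Marker genes fitted the labelled regions in the main: the cortical gene Slc17a7 stood at 986 to 1760 CPM (counts scaled to a total of 1 M, on 1 TMM scale over all 20 libraries) in pIC and at 55.5 to 593 CPM in PVT. The thalamic gene Calb2 stood at 61.9 to 324 CPM in PVT and at 7.55 to 22.4 CPM in pIC. The thalamic gene Tcf7l2 ranged from 7.15 to 160 CPM among PVT libraries. In PVT, 10 cortical excitatory markers summed to 415 to 1660 CPM in control and 672 to 1740 CPM in STZ libraries. There 10 thalamic markers summed to 454 to 991 and 449 to 1890 CPM. The sums of 10 striatal markers were 386 to 1670 CPM in control and 302 to 3860 CPM in STZ libraries of PVT. In pIC they were 517 to 1560 and 514 to 3880 CPM. PVT control replicate 4 held growth hormone (Gh) at 11800 CPM, a pituitary transcript, against at most 2.76 CPM in any STZ library of PVT. Calls for STZ against control in PVT, and for PVT against pIC in control mice, are therefore also given without it. In bulk tissue, fewer cells of a type and less RNA in each cell cannot be told apart. Nothing in the labels ties each library to an animal of its own, so the p-values measure the spread between these libraries.

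Most of the 41 genes were lower in STZ than in control mice in both regions. In PVT all 41 passed the filter on low counts and 28 were called lower and 0 higher by edgeR's quasi-likelihood test (adjusted p under 0.05 over all genes tested), which is 68.3%, where 2.07% of the 17076 genes tested were called, 1.59% lower and 0.474% higher. Every STZ library lay below every control library for 32 of the 41 genes, a pattern shown by 3.91% of all genes tested. The median log2 fold change was -0.99, with a range of -3.6 to 0.03, against 0.0038 over all genes. In pIC 40 of the 41 passed the filter and 26 were called lower and 0 higher (65%), against 1.4% of 16189 genes called, 0.964% lower and 0.432% higher. Their groups did not overlap for 28 genes, against 2.4% of all genes, and the median log2 fold change was -0.93, with a range of -3.72 to -0.13.

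Some genes reached the filter through their control libraries alone, so a test of them could only show a lower level in STZ mice. In PVT these were Mx1 and Phf11b, both called, and 26 of the other 39 were called. In pIC they were Mx1, Mx2, Ifi27l2a, Ifi203 and Ifi204, 4 of them called, and 22 of the other 35 were called. Without PVT control replicate 4, 20 genes were called in PVT with a median of -0.98, and of all genes tested 143 were called (0.83%) in place of 353. The calls of Mx1, Ifi44, Slfn5, Slfn8, Ifi204, Ifi35, Tor3a and Psme2 were lost, with log2 fold changes between -2.39 and -0.36 there. Without PVT control replicate 1 it was also 20 genes, with a median of -1 and 156 of all genes (0.903%).

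**Figure D1:**
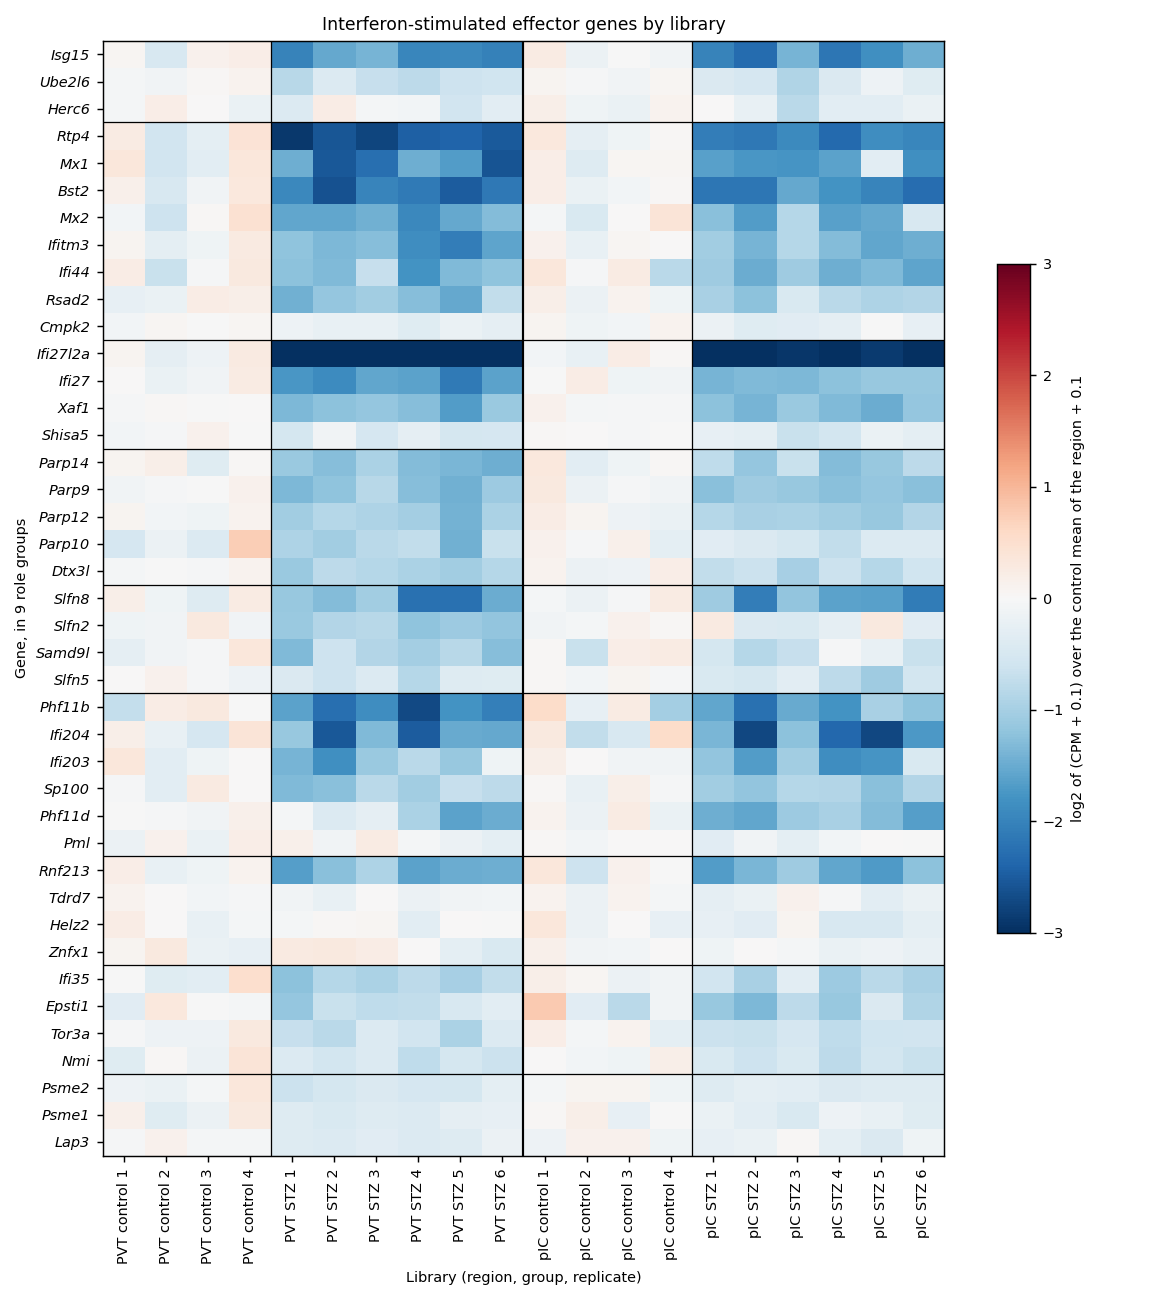
Each cell is the log2 ratio of the CPM of 1 gene in 1 library to the mean of the 4 control libraries of its region (0.1 CPM added to both), with rows in 9 role groups and the colour scale ending at -3 and 3. The 12 STZ columns are mostly blue, with library medians of -1.15 to -0.8, and control columns have medians of -0.17 to 0.14.

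Control values below are for replicates 1 to 4 in order, and the 6 STZ libraries are given by their lowest and highest value and their median. The 3 genes of a role group with the highest mean CPM are given in full.

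ISG15 is a ubiquitin-like protein that is joined to other proteins, and the list held 3 genes of that system. In PVT 2 of 3 were called lower and in pIC 1 of 3. Isg15 (ENSMUSG00000035692) itself showed the following values. In PVT, Isg15 stood at 6.65, 4.61, 7.09 and 7.38 CPM in control libraries and at 1.5 to 2.37 CPM (median 1.59) in STZ libraries. In pIC, Isg15 stood at 7.59, 5.6, 6.33 and 5.96 CPM in control libraries and at 1.21 to 2.37 CPM (median 1.6) in STZ libraries. Both regions had all STZ libraries below all controls, and the lowest control was replicate 2 in each. Isg15 had a log2 fold change of -1.84 ± 0.18 (SE) in PVT, 3.59-fold lower (adjusted p = 0.000354), and of -1.88 ± 0.18 in pIC, 3.68-fold lower (adjusted p = 6.89e-05). Ube2l6 (ENSMUSG00000027078) is the conjugating enzyme for ISG15. In PVT, Ube2l6 stood at 7.97, 7.79, 8.56 and 9.04 CPM in control libraries and at 4.66 to 6.25 CPM (median 5.28) in STZ libraries. In pIC, Ube2l6 stood at 9.43, 8.79, 8.24 and 9.29 CPM in control libraries and at 4.77 to 7.97 CPM (median 6.59) in STZ libraries. The groups did not overlap in either region. Ube2l6 had a log2 fold change of -0.66 ± 0.10 (SE) in PVT, 1.58-fold lower (adjusted p = 0.00745), and of -0.45 ± 0.12 in pIC, not called (adjusted p = 0.0925). Herc6 (ENSMUSG00000029798) is the ligase that attaches ISG15 in mice. In PVT, Herc6 stood at 9.84, 11.8, 10.3 and 8.89 CPM in control libraries and at 6.83 to 12 CPM (median 8.86) in STZ libraries. In pIC, Herc6 stood at 21.6, 17.5, 16.6 and 20.6 CPM in control libraries and at 10.8 to 19.1 CPM (median 15.9) in STZ libraries. Control and STZ libraries overlapped in both regions, and pIC was higher than PVT in both conditions. Herc6 had a log2 fold change of -0.18 ± 0.15 (SE) in PVT, not called (adjusted p = 0.58), and of -0.29 ± 0.13 in pIC, not called (adjusted p = 0.399). Of its exon sequence, 10.3% of 100-base stretches also occur in Gm45193, so its count depends on how such reads were assigned.

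Of 8 genes that block virus entry, replication or release, 7 were called lower in PVT and 6 in pIC. Bst2 (ENSMUSG00000046718), or tetherin, holds budding virions at the cell surface. In PVT, Bst2 stood at 25.9, 16.6, 21.4 and 28.8 CPM in control libraries and at 3.71 to 6.03 CPM (median 5.22) in STZ libraries. In pIC, Bst2 stood at 14.5, 10.9, 11.8 and 12.9 CPM in control libraries and at 2.48 to 4.29 CPM (median 2.91) in STZ libraries. Its STZ libraries lay far below the controls in both regions, and the PVT controls were above the pIC controls. Bst2 had a log2 fold change of -2.21 ± 0.17 (SE) in PVT, 4.63-fold lower (adjusted p = 7.01e-05), and of -1.99 ± 0.14 in pIC, 3.96-fold lower (adjusted p = 3.27e-06). Ifitm3 (ENSMUSG00000025492) stops viruses from fusing with endosomal membranes. In PVT, Ifitm3 stood at 36.9, 28.2, 32 and 42.3 CPM in control libraries and at 8.19 to 15 CPM (median 12.6) in STZ libraries. In pIC, Ifitm3 stood at 25.9, 20.1, 24.5 and 23.5 CPM in control libraries and at 7.97 to 13 CPM (median 9.14) in STZ libraries. No STZ library reached a control library of its region. Ifitm3 had a log2 fold change of -1.53 ± 0.17 (SE) in PVT, 2.9-fold lower (adjusted p = 0.00111), and of -1.25 ± 0.13 in pIC, 2.38-fold lower (adjusted p = 0.000132). Cmpk2 (ENSMUSG00000020638), a mitochondrial nucleotide kinase, was the exception of this group. In PVT, Cmpk2 stood at 30.6, 34, 32.1 and 33.8 CPM in control libraries and at 25.5 to 29.4 CPM (median 28) in STZ libraries. In pIC, Cmpk2 stood at 32.8, 28.5, 29.2 and 33.3 CPM in control libraries and at 24.1 to 30.9 CPM (median 25.9) in STZ libraries. The groups were apart in PVT and overlapped in pIC, with differences smaller than those of the other 7. Cmpk2 had a log2 fold change of -0.24 ± 0.06 (SE) in PVT, not called (adjusted p = 0.0566), and of -0.23 ± 0.08 in pIC, not called (adjusted p = 0.225).

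Of the other 5 genes of this group, 4 were called lower in both regions and Mx1 in PVT alone. Rtp4, a chaperone of cell-surface receptors with antiviral activity, had the smallest adjusted p of the 8 in both regions and is given for that reason, after its values were seen. In PVT, Rtp4 stood at 16.5, 9.31, 11.3 and 18.5 CPM in control libraries and at 1.78 to 2.54 CPM (median 2.3) in STZ libraries. In pIC, Rtp4 stood at 13.4, 8.98, 9.86 and 11 CPM in control libraries and at 2.07 to 2.92 CPM (median 2.59) in STZ libraries. Groups were separate in both regions. Rtp4 had a log2 fold change of -2.64 ± 0.19 (SE) in PVT, 6.24-fold lower (adjusted p = 4.57e-05), and of -2.08 ± 0.13 in pIC, 4.22-fold lower (adjusted p = 1.37e-06). Of its 100-base stretches, 9.28% also occur in Gm45338. Mx2, a dynamin-like GTPase, had log2 fold changes of -1.66 in PVT and -1.31 in pIC. Rsad2, or viperin, makes a chain-terminating nucleotide, and had values of -1.22 and -0.89. Ifi44 had values of -1.28 and -1.38, and all 3 were called in both regions. Mx1, also a dynamin-like GTPase, was at most 0.964 CPM in any library. Its log2 fold change was -2.55 ± 0.42 (SE) in PVT (adjusted p = 0.0124). In pIC it was -1.71 ± 0.41 (adjusted p = 0.059), with 1 STZ library at 0.509 CPM among the controls.

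Of 4 small interferon-induced proteins of mitochondria, endoplasmic reticulum and apoptosis, 3 were called lower in PVT and all 4 in pIC. Ifi27 (ENSMUSG00000064215), a small mitochondrial protein, had the highest mean level per exon length of the 41 genes in PVT of control mice. In pIC of control mice its mean of 35 CPM per kilobase of exon was close to that of Ifitm3 at 34.6, and their order differed between libraries. In PVT, Ifi27 stood at 90.7, 78.4, 83.1 and 107 CPM in control libraries and at 20.5 to 30.3 CPM (median 28.1) in STZ libraries. In pIC, Ifi27 stood at 50.6, 59.7, 47.1 and 48.1 CPM in control libraries and at 19.4 to 23.3 CPM (median 21.3) in STZ libraries. Groups were separate in both regions, and the 6 STZ libraries of pIC lay close together. Ifi27 had a log2 fold change of -1.75 ± 0.12 (SE) in PVT, 3.36-fold lower (adjusted p = 2.85e-05), and of -1.26 ± 0.08 in pIC, 2.39-fold lower (adjusted p = 1.23e-06). Xaf1 (ENSMUSG00000040483) encodes a protein that opposes the apoptosis inhibitor XIAP. In PVT, Xaf1 stood at 10.3, 10.7, 10.4 and 10.6 CPM in control libraries and at 3.23 to 4.81 CPM (median 4.36) in STZ libraries. In pIC, Xaf1 stood at 9.97, 8.83, 8.98 and 8.92 CPM in control libraries and at 3.22 to 4.16 CPM (median 3.72) in STZ libraries. The PVT control libraries lay close together, and no STZ library reached the controls of its region. Xaf1 had a log2 fold change of -1.31 ± 0.11 (SE) in PVT, 2.48-fold lower (adjusted p = 0.000102), and of -1.30 ± 0.10 in pIC, 2.47-fold lower (adjusted p = 6.74e-06). Shisa5 (ENSMUSG00000025647), a membrane protein of the endoplasmic reticulum, had smaller differences. In PVT, Shisa5 stood at 52.2, 53.4, 60.2 and 54.3 CPM in control libraries and at 37.9 to 51.3 CPM (median 38.7) in STZ libraries. In pIC, Shisa5 stood at 76.9, 75.6, 72.7 and 74.5 CPM in control libraries and at 46.8 to 65 CPM (median 60.9) in STZ libraries. STZ libraries were below the controls in both regions, narrowly so in PVT. Shisa5 had a log2 fold change of -0.40 ± 0.09 (SE) in PVT, not called (adjusted p = 0.055), and of -0.37 ± 0.08 in pIC, 1.29-fold lower (adjusted p = 0.04).

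Ifi27l2a, a close relative of Ifi27, showed the largest fold change of the 41 genes in both regions and is given after its values were seen. In PVT, Ifi27l2a stood at 11.4, 8.9, 9.63 and 13 CPM in control libraries and at 0.445 to 1.26 CPM (median 0.926) in STZ libraries. In pIC, Ifi27l2a stood at 5.84, 5.31, 7.26 and 6.33 CPM in control libraries and at 0.125 to 0.763 CPM (median 0.442) in STZ libraries. The highest STZ library was far below the lowest control in each region. Ifi27l2a had a log2 fold change of -3.60 ± 0.24 (SE) in PVT, 12.1-fold lower (adjusted p = 2.85e-05), and of -3.72 ± 0.31 in pIC, 13.2-fold lower (adjusted p = 1.8e-05). The fitted values rest on few counts in STZ mice, most of all in pIC. There Ifi27l2a passed the filter through its control libraries alone, so its test in pIC could only show a lower level.

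**Figure D2:**
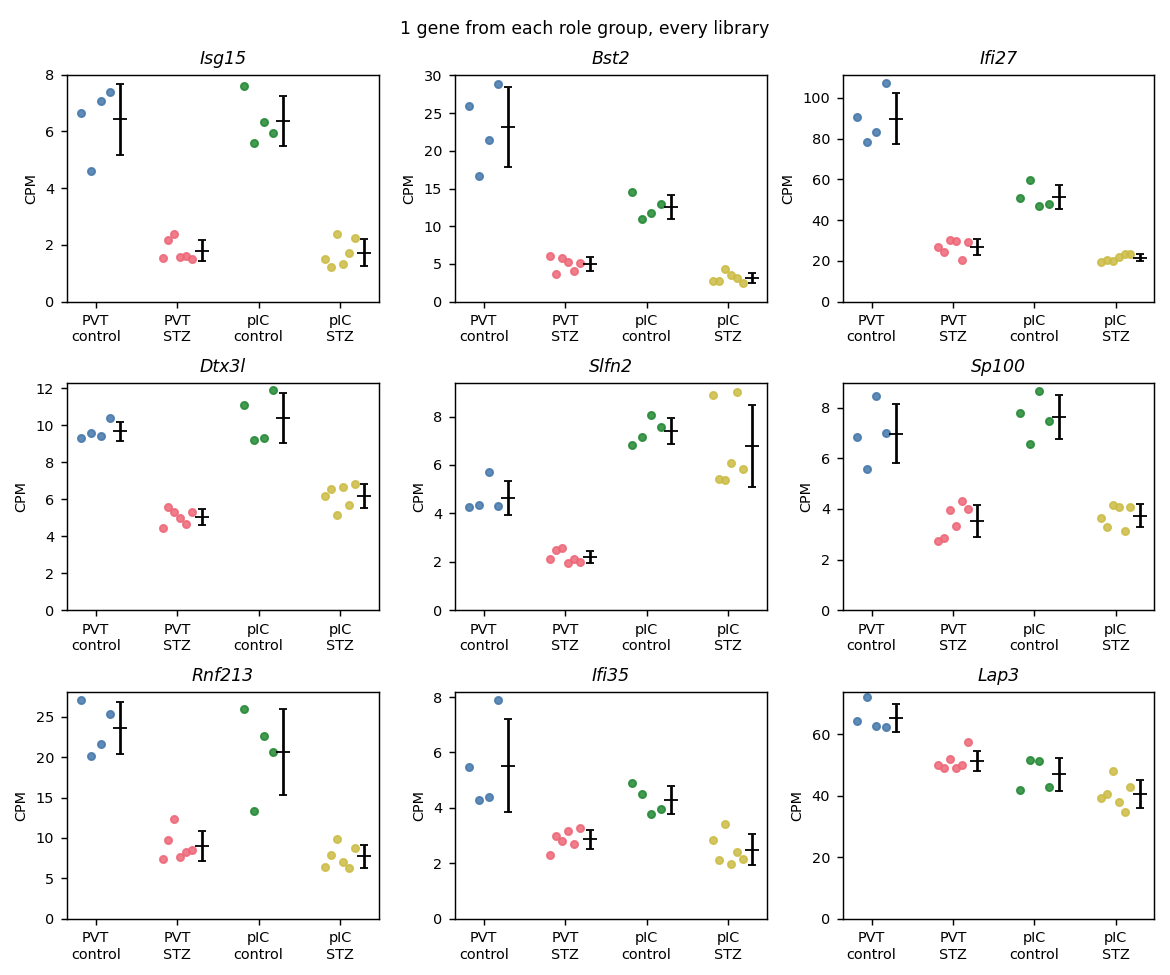
CPM in every library for the gene of smallest p in PVT among the 3 given in full in each of the 9 role groups, with points for libraries and black bars for the mean ± SD of 4 control or 6 STZ libraries. Bst2 is at 3.71 to 6.03 CPM in PVT STZ libraries against at least 16.6 CPM in controls, whereas Slfn2 overlaps between groups in pIC.

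Enzymes of ADP-ribosylation attach ADP-ribose to proteins and RNA, and 4 of 5 were called lower in each region. Parp12 (ENSMUSG00000038507) is a mono-ADP-ribosyltransferase. In PVT, Parp12 stood at 18.5, 16.6, 16 and 18.8 CPM in control libraries and at 6.51 to 9.64 CPM (median 8.78) in STZ libraries. In pIC, Parp12 stood at 15.3, 13.8, 11.6 and 11.3 CPM in control libraries and at 5.89 to 7.17 CPM (median 6.67) in STZ libraries. The STZ libraries were all below the controls. Parp12 had a log2 fold change of -1.03 ± 0.11 (SE) in PVT, 2.04-fold lower (adjusted p = 0.000478), and of -0.98 ± 0.10 in pIC, 1.97-fold lower (adjusted p = 0.000121). Dtx3l (ENSMUSG00000049502) is a ubiquitin ligase that works in a complex with Parp9. In PVT, Dtx3l stood at 9.28, 9.59, 9.41 and 10.4 CPM in control libraries and at 4.45 to 5.57 CPM (median 5.14) in STZ libraries. In pIC, Dtx3l stood at 11.1, 9.22, 9.32 and 11.9 CPM in control libraries and at 5.14 to 6.83 CPM (median 6.36) in STZ libraries. Groups were separate in both regions. Dtx3l had a log2 fold change of -0.94 ± 0.09 (SE) in PVT, 1.92-fold lower (adjusted p = 0.000271), and of -0.75 ± 0.11 in pIC, 1.69-fold lower (adjusted p = 0.00218). Parp14 (ENSMUSG00000034422) carries macrodomains beside its transferase domain. In PVT, Parp14 stood at 9.59, 10.2, 7 and 9.15 CPM in control libraries and at 3.19 to 4.62 CPM (median 3.61) in STZ libraries. In pIC, Parp14 stood at 9.56, 6.13, 7.02 and 7.81 CPM in control libraries and at 3.05 to 4.73 CPM (median 3.89) in STZ libraries. PVT control replicate 3 and pIC control replicate 2 were the lowest controls, and both were above all STZ libraries of their region. Parp14 had a log2 fold change of -1.25 ± 0.13 (SE) in PVT, 2.39-fold lower (adjusted p = 0.000558), and of -0.97 ± 0.16 in pIC, 1.96-fold lower (adjusted p = 0.00494). Parp9 had log2 fold changes of -1.21 in both regions and was called in each. Parp9 and Dtx3l overlap on opposite strands over 9.4% and 8% of their exon bases. Parp10 was the gene not called, at -0.96 ± 0.26 (SE) in PVT (adjusted p = 0.0872) and -0.49 ± 0.15 in pIC (adjusted p = 0.155). Its STZ libraries were below all controls in both regions, and PVT control replicate 4 stood apart at 6.65 CPM.

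All 4 genes of the Schlafen and SAMD9 families were called lower in PVT and 2 of 4 in pIC. Slfn5 (ENSMUSG00000054404) is the Schlafen gene of highest CPM here. In PVT, Slfn5 stood at 13.1, 14.2, 12.7 and 11.7 CPM in control libraries and at 7.15 to 10.1 CPM (median 9.59) in STZ libraries. In pIC, Slfn5 stood at 15.7, 14.5, 16.3 and 14.9 CPM in control libraries and at 7.25 to 12.3 CPM (median 10.5) in STZ libraries. Groups did not overlap in either region. Slfn5 had a log2 fold change of -0.50 ± 0.11 (SE) in PVT, 1.42-fold lower (adjusted p = 0.0359), and of -0.60 ± 0.12 in pIC, 1.52-fold lower (adjusted p = 0.0255). Samd9l (ENSMUSG00000047735) is a large antiviral factor that restrains translation. In PVT, Samd9l stood at 6.19, 7.05, 7.36 and 9.55 CPM in control libraries and at 2.96 to 4.89 CPM (median 3.86) in STZ libraries. In pIC, Samd9l stood at 7.99, 4.92, 9.03 and 9.33 CPM in control libraries and at 4.26 to 7.63 CPM (median 5.11) in STZ libraries. Groups were apart in PVT and overlapped in pIC, where control replicate 2 lay among the STZ libraries. Samd9l had a log2 fold change of -0.99 ± 0.17 (SE) in PVT, 1.99-fold lower (adjusted p = 0.0124), and of -0.48 ± 0.19 in pIC, not called (adjusted p = 0.336). Slfn2 (ENSMUSG00000072620) is known for keeping T cells quiescent. In PVT, Slfn2 stood at 4.26, 4.33, 5.71 and 4.3 CPM in control libraries and at 1.96 to 2.56 CPM (median 2.12) in STZ libraries. In pIC, Slfn2 stood at 6.83, 7.14, 8.05 and 7.58 CPM in control libraries and at 5.39 to 9.03 CPM (median 5.97) in STZ libraries. The groups were apart in PVT, and in pIC 2 STZ libraries were above every control. Slfn2 had a log2 fold change of -1.08 ± 0.14 (SE) in PVT, 2.11-fold lower (adjusted p = 0.00184), and of -0.13 ± 0.16 in pIC, not called (adjusted p = 0.828). Slfn8 had log2 fold changes of -1.59 in PVT and -1.67 in pIC and was called in both.

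Of 6 genes of nuclear bodies, chromatin and DNA binding, 3 were called lower in PVT, and 4 of the 5 tested in pIC. Sp100 (ENSMUSG00000026222) and Pml (ENSMUSG00000036986) encode the permanent proteins of PML nuclear bodies. In PVT, Sp100 stood at 6.85, 5.58, 8.47 and 7.02 CPM in control libraries and at 2.75 to 4.3 CPM (median 3.62) in STZ libraries. In pIC, Sp100 stood at 7.81, 6.57, 8.68 and 7.49 CPM in control libraries and at 3.14 to 4.16 CPM (median 3.87) in STZ libraries. STZ libraries were below the controls in both regions. Sp100 had a log2 fold change of -0.99 ± 0.16 (SE) in PVT, 1.98-fold lower (adjusted p = 0.0104), and of -1.03 ± 0.12 in pIC, 2.04-fold lower (adjusted p = 0.000362). In PVT, Pml stood at 9.44, 11.5, 9.23 and 12.2 CPM in control libraries and at 8.57 to 12.6 CPM (median 10) in STZ libraries. In pIC, Pml stood at 14.3, 13.2, 13.9 and 14.1 CPM in control libraries and at 10.9 to 13.9 CPM (median 13) in STZ libraries. For Pml the libraries of both groups overlapped in both regions. Pml had a log2 fold change of -0.03 ± 0.12 (SE) in PVT, not called (adjusted p = 0.924), and of -0.13 ± 0.08 in pIC, not called (adjusted p = 0.579). The PVT value of Pml turned positive under 7 of the 24 alternative analyses. Phf11d (ENSMUSG00000068245) is a PHD finger protein. In PVT, Phf11d stood at 2.44, 2.4, 2.27 and 2.72 CPM in control libraries and at 0.737 to 2.35 CPM (median 1.52) in STZ libraries. In pIC, Phf11d stood at 2.07, 1.69, 2.31 and 1.66 CPM in control libraries and at 0.551 to 0.935 CPM (median 0.678) in STZ libraries. The 6 PVT STZ libraries spread widely and 1 reached the controls, and in pIC the groups were apart. Phf11d had a log2 fold change of -0.72 ± 0.30 (SE) in PVT, not called (adjusted p = 0.249), and of -1.42 ± 0.21 in pIC, 2.68-fold lower (adjusted p = 0.00218).

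Its neighbour in name, Phf11b, was low and near the filter. In PVT it was called, at -2.61 ± 0.36 (SE, adjusted p = 0.00377). In pIC it failed the filter, with controls at 1.17, 0.628, 0.932 and 0.323 CPM and STZ libraries at 0.0836 to 0.339 CPM, so the groups overlapped. For Phf11b, 13.8% of 100-base stretches occur in other genes, Phf11c and Phf11d among them. Ifi204, a DNA-binding protein of the PYHIN family, was called in both regions at -1.81 and -2.15. It shares 10.7% of 100-base stretches with Ifi211 and other relatives, so its counts are uncertain. Ifi203, of the same family, was at -1.01 ± 0.30 (SE) in PVT (adjusted p = 0.113) and at -1.37 ± 0.28 in pIC (adjusted p = 0.0282).

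The helicases, RNF213 and TDRD7 formed the group with the lowest share of calls, 1 of 4 in each region. Rnf213 (ENSMUSG00000070327), a very large ubiquitin ligase with ATPase modules, was that gene. In PVT, Rnf213 stood at 27.1, 20.2, 21.6 and 25.4 CPM in control libraries and at 7.41 to 12.3 CPM (median 8.38) in STZ libraries. In pIC, Rnf213 stood at 26, 13.4, 22.6 and 20.6 CPM in control libraries and at 6.32 to 9.88 CPM (median 7.42) in STZ libraries. Groups were separate, although pIC control replicate 2 was well below the other controls. Rnf213 had a log2 fold change of -1.39 ± 0.14 (SE) in PVT, 2.63-fold lower (adjusted p = 0.000483), and of -1.42 ± 0.18 in pIC, 2.68-fold lower (adjusted p = 0.00169). Of its exon bases, 8.74% lie under the antisense gene A930037H05Rik. Znfx1 (ENSMUSG00000039501) is a helicase that recognises viral RNA. In PVT, Znfx1 stood at 60.8, 71.3, 50.3 and 48.8 CPM in control libraries and at 41.8 to 70.4 CPM (median 63) in STZ libraries. In pIC, Znfx1 stood at 103, 86, 86.7 and 92.4 CPM in control libraries and at 78.8 to 92.2 CPM (median 83.7) in STZ libraries. In both regions the groups overlapped. Znfx1 had a log2 fold change of 0.03 ± 0.17 (SE) in PVT, not called (adjusted p = 0.949), and of -0.13 ± 0.06 in pIC, not called (adjusted p = 0.46). Tdrd7 (ENSMUSG00000035517) is a Tudor domain protein. In PVT, Tdrd7 stood at 43.2, 40, 37.6 and 38.6 CPM in control libraries and at 34.1 to 40.1 CPM (median 37.1) in STZ libraries. In pIC, Tdrd7 stood at 36.6, 30.2, 36.6 and 32.5 CPM in control libraries and at 27.3 to 36.9 CPM (median 29.5) in STZ libraries. The groups overlapped here too. Tdrd7 had a log2 fold change of -0.11 ± 0.06 (SE) in PVT, not called (adjusted p = 0.381), and of -0.14 ± 0.09 in pIC, not called (adjusted p = 0.589). Helz2, a helicase known as a coactivator of nuclear receptors, had values of -0.04 ± 0.12 and -0.28 ± 0.14 and was called in neither region. In PVT, Znfx1 was negative and Helz2 positive under some alternatives, with Znfx1 at -0.03 under upper quartile scaling.

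Of 4 signalling adaptors and secretory pathway genes, 2 were called lower in PVT and 3 in pIC. Ifi35 (ENSMUSG00000010358) and Nmi (ENSMUSG00000026946) encode proteins that bind each other, and Nmi also binds STAT proteins. In PVT, Ifi35 stood at 5.48, 4.29, 4.41 and 7.9 CPM in control libraries and at 2.31 to 3.27 CPM (median 2.89) in STZ libraries. In pIC, Ifi35 stood at 4.89, 4.49, 3.78 and 3.97 CPM in control libraries and at 1.97 to 3.43 CPM (median 2.28) in STZ libraries. Groups were apart in both regions, and PVT control replicate 4 was the highest. Ifi35 had a log2 fold change of -0.95 ± 0.18 (SE) in PVT, 1.93-fold lower (adjusted p = 0.0248), and of -0.78 ± 0.17 in pIC, 1.71-fold lower (adjusted p = 0.0335). In PVT, Nmi stood at 3.35, 4.43, 3.79 and 5.73 CPM in control libraries and at 2.49 to 3.25 CPM (median 2.92) in STZ libraries. In pIC, Nmi stood at 3.77, 3.52, 3.39 and 4.21 CPM in control libraries and at 2.12 to 2.69 CPM (median 2.44) in STZ libraries. For Nmi too no STZ library reached the controls. Nmi had a log2 fold change of -0.57 ± 0.16 (SE) in PVT, not called (adjusted p = 0.0941), and of -0.60 ± 0.13 in pIC, 1.52-fold lower (adjusted p = 0.0335). Tor3a (ENSMUSG00000060519) is an ATPase of the endoplasmic reticulum. In PVT, Tor3a stood at 13.3, 12.3, 12.3 and 16.6 CPM in control libraries and at 7 to 10.3 CPM (median 8.77) in STZ libraries. In pIC, Tor3a stood at 9.79, 8.21, 9.13 and 6.98 CPM in control libraries and at 5.02 to 6 CPM (median 5.53) in STZ libraries. Groups were separate in both regions. Tor3a had a log2 fold change of -0.63 ± 0.13 (SE) in PVT, 1.55-fold lower (adjusted p = 0.0346), and of -0.62 ± 0.11 in pIC, 1.54-fold lower (adjusted p = 0.00869). Of the exon bases of Ifi35, 16.8% lie under the antisense gene Gm11626. Epsti1 had values of -0.71 ± 0.21 (adjusted p = 0.119) and -1.01 ± 0.31 (adjusted p = 0.164), with overlapping groups.

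Peptide production was represented by the proteasome activator subunits Psme1 and Psme2 and by Lap3, an aminopeptidase that trims peptides. In PVT 2 of 3 were called lower and in pIC 1 of 3. Lap3 (ENSMUSG00000039682) had the highest CPM. In PVT, Lap3 stood at 64.3, 72.1, 62.9 and 62.3 CPM in control libraries and at 49.2 to 57.5 CPM (median 50) in STZ libraries. In pIC, Lap3 stood at 42, 51.8, 51.5 and 42.9 CPM in control libraries and at 34.8 to 48.2 CPM (median 40) in STZ libraries. The groups were apart in PVT and overlapped in pIC. Lap3 had a log2 fold change of -0.35 ± 0.06 (SE) in PVT, 1.28-fold lower (adjusted p = 0.0187), and of -0.21 ± 0.09 in pIC, not called (adjusted p = 0.399). For Psme1 (ENSMUSG00000022216) the values were as follows. In PVT, Psme1 stood at 51.5, 36.3, 41.2 and 56.8 CPM in control libraries and at 33.8 to 38.9 CPM (median 35.7) in STZ libraries. In pIC, Psme1 stood at 31.9, 34.9, 26.1 and 30.8 CPM in control libraries and at 22.6 to 28 CPM (median 25.6) in STZ libraries. Groups overlapped in both regions, and PVT control replicate 2 lay among the STZ libraries. Psme1 had a log2 fold change of -0.36 ± 0.11 (SE) in PVT, not called (adjusted p = 0.133), and of -0.28 ± 0.08 in pIC, not called (adjusted p = 0.124). Psme2 (ENSMUSG00000079197) forms the activator ring with Psme1. In PVT, Psme2 stood at 26.7, 25.6, 28.5 and 37.1 CPM in control libraries and at 18.9 to 24.1 CPM (median 20.6) in STZ libraries. In pIC, Psme2 stood at 21.3, 23.4, 23.3 and 20.3 CPM in control libraries and at 16.2 to 18 CPM (median 16.9) in STZ libraries. Its groups did not overlap. Psme2 had a log2 fold change of -0.49 ± 0.11 (SE) in PVT, 1.4-fold lower (adjusted p = 0.0421), and of -0.37 ± 0.06 in pIC, 1.29-fold lower (adjusted p = 0.0087). Since 18.4% of its 100-base stretches occur in Psme2b, its counts are uncertain.

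**Figure D3:**
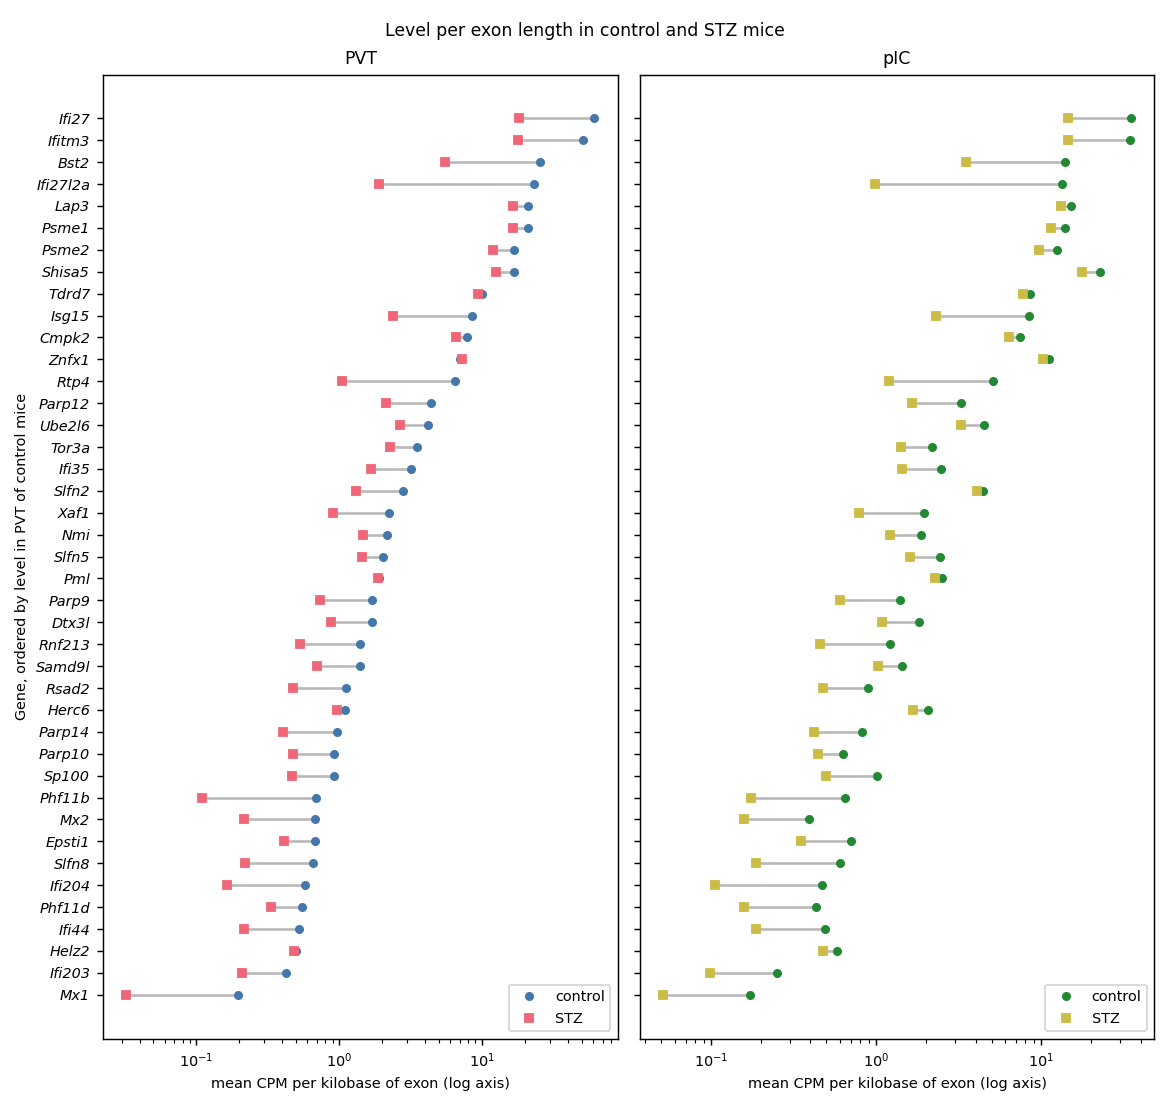
Mean CPM per kilobase of exon (log axis) in control (circles) and STZ (squares) libraries of PVT and pIC, with genes in the order of PVT control mice and grey lines joining the 2 groups. Ifi27 and Ifitm3 lead in control mice, and Ifi27l2a falls from 23.1 to 1.9 in PVT and from 13.4 to 0.982 in pIC.

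Levels were compared between genes per kilobase of exon (GENCODE M21 gene models of GRCm38). In PVT of control mice Ifi27 at 61.3 and Ifitm3 at 51.4 CPM per kilobase stood first, followed by Bst2 at 25.7, Ifi27l2a at 23.1, Lap3 at 21.1 and Psme1 at 21. Mx1 was last at 0.195. The ranges of the control libraries of Ifi27 and Ifitm3 overlapped in both regions. Within each control library of PVT Ifi27 was above Ifitm3, and in pIC their order differed between libraries. The ranges of Bst2, Ifi27l2a, Lap3 and Psme1 overlapped in PVT, and the order of these genes differed between control libraries. In STZ mice Ifi27 at 18.3, Ifitm3 at 17.8, Lap3 at 16.6 and Psme1 at 16.4 were close together, and Ifi27l2a stood at 1.9. In pIC the first 3 in control mice were Ifi27 at 35, Ifitm3 at 34.6 and Shisa5 at 22.7, and in STZ mice Shisa5 led at 17.6. The spread between libraries was of like size in the 4 groups: the median coefficient of variation over the 41 genes was 17% in PVT control, 15.6% in PVT STZ, 12.6% in pIC control and 16.7% in pIC STZ libraries.

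The regions were compared within each condition. In control mice 18 of 41 genes differed between PVT and pIC, 12 higher and 6 lower in PVT (43.9%), against 47.8% of all genes tested, so the share was near that of all genes. Bst2 was higher in PVT by 0.90 ± 0.16 (log2, SE), Ifi27 by 0.82 ± 0.11 and Ifi27l2a by 0.80 ± 0.15. Herc6 was lower in PVT by -0.90 ± 0.12, Znfx1 by -0.66 ± 0.12 and Slfn2 by -0.66 ± 0.14. Without PVT control replicate 4, 15 of the 41 genes differed in control mice (36.6%), against 42.9% of all genes tested. The calls of Mx2, Slfn5 and Tdrd7 were lost there. In STZ mice 18 of the 39 tested differed (46.2%), 10 higher and 8 lower in PVT, against 49.1% of all genes. Slfn2 had the largest of these differences, at -1.62 ± 0.16, whereas Bst2 was at 0.67 ± 0.16 and Isg15 at 0.05 ± 0.20.

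Whether the STZ effect differed between PVT and pIC was tested as an interaction term in 1 fit of all 20 libraries. No gene of the 41 and none of the 17427 genes tested passed an adjusted p of 0.05 in edgeR. At an unadjusted p under 0.05 there were 3 of the 41 genes and 701 of all genes (4.02%). DESeq2 called 4 genes and limma-voom 0, none of them among the 41. The 3 were Slfn2, Ifi27 and Rtp4. The interaction value (PVT minus pIC) of Slfn2 was -0.96 ± 0.22 (log2, SE, adjusted p = 0.511), that of Ifi27 -0.50 ± 0.15 (adjusted p = 0.909) and that of Rtp4 -0.58 ± 0.24 (adjusted p = 1). The 22 genes called in both regions, the 6 called in PVT alone and the 4 called in pIC alone are thus not shown to differ between regions. The 6 were Ube2l6, Mx1, Slfn2, Samd9l, Phf11b and Lap3, and the 4 were Shisa5, Phf11d, Ifi203 and Nmi. The 9 called in neither were Herc6, Cmpk2, Parp10, Pml, Znfx1, Helz2, Tdrd7, Epsti1 and Psme1. In all, 39 genes had negative values in both regions.

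**Figure D4:**
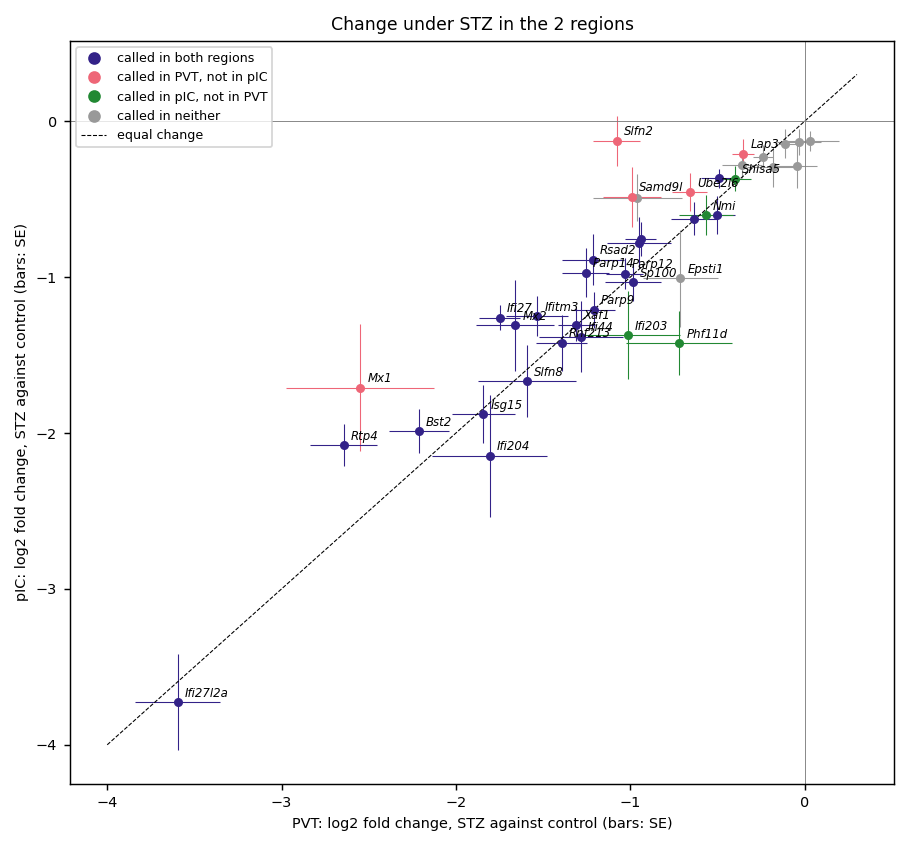
Log2 fold change of STZ against control in PVT (horizontal) and pIC (vertical) for the 40 genes tested in both, with SE bars, colours for the calls and a dashed line of equal change. Ifi27l2a lies at -3.60 and -3.72, and Slfn2 at -1.08 and -0.13.

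Other genes of the pathway were read from the same fits, by lists of 60 genes. In PVT 23 of the 50 tested were called lower and 0 higher, and in pIC 19 of 49 and 0. The 8 ligands were at or near 0: 6 had 0 counts in all 20 libraries, and Ifnb1 and Ifng together had 5 counts, at most 3 in a library. A count of 0 allows up to 0.12 CPM in the deepest and 0.17 CPM in the shallowest library, counting error only. Of 8 receptor and kinase genes tested, Il10rb was called lower in PVT (-0.44 ± 0.09, adjusted p = 0.0293) and Ifnar2 in pIC (-0.31 ± 0.06, adjusted p = 0.0301). Jak2 was at 0.28 ± 0.13 and 0.27 ± 0.07 and was called in neither.

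Of 9 transcription factors of the response, 5 were called lower in PVT and 4 in pIC. Irf9 went from 25.7 ± 6.53 (SD, n = 4) to 8.88 ± 0.551 CPM (n = 6) in PVT and from 20.8 ± 3.78 to 7.36 ± 0.586 CPM in pIC. Its log2 fold changes were -1.54 ± 0.14 (SE, adjusted p = 0.000232) and -1.50 ± 0.11 (adjusted p = 3.92e-06). Stat2 was at -0.61 and -0.49, called in both regions. Of 6 negative regulators only Usp18, which removes ISG15 from proteins, was called, at -2.41 ± 0.21 in PVT and -2.09 ± 0.18 in pIC. Socs1 at -0.90 and Ptpn2 at 0.15 in PVT were not called.

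Among the other genes of the ISG15 system, Uba7, the activating enzyme, was called at -1.43 and -1.17, and Trim25, a ligase, at -1.43 and -1.35. Arih1 was at 0.20 and 0.07 and was not called. Of the OAS, IFIT and PKR genes 7 of 10 tested were called lower in PVT and 6 of 9 in pIC. Oasl2 stood at -2.29 and -2.26, Ifit3b at -2.19 and -1.95 and Ifit3 at -2.25 and -1.71, and the last 2 are near-identical copies whose counts are uncertain. Of 11 nucleic acid sensors 5 were called lower in PVT and 3 in pIC. Rigi was at -1.24 and -1.12 and Zbp1 at -3.21 and -2.63, both called in each region, and Ifih1 at -1.13 (called) and -0.56 (not called). Of the immunoproteasome subunits, Psmb8 (-1.29 and -1.20) and Psmb9 (-1.74 and -1.23) were called and Psmb10 (-0.11 and -0.10) was not. None of 8 housekeeping genes was called in either region, and their medians were 0 and -0.03.

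Marker lists of other cell types were read beside these results, as the mean log2 CPM of a list and an exact two-sided permutation test over all 210 assignments of libraries to groups, whose smallest p is 0.00476. Of the 30 comparisons (15 lists in 2 regions) none passed adjustment, the lowest adjusted p being 0.0714. The design limits this outcome: 2 lists, ependyma and oligodendrocytes in PVT, were at the smallest p the test can give and still did not pass. Microglial markers differed by -0.08 in PVT (exact p = 0.21) and -0.08 in pIC (exact p = 0.162), with summed levels of 337 to 393 CPM in control and 331 to 360 CPM in STZ libraries of PVT, and 1 of 12 genes called lower. In pIC these sums were 349 to 386 and 337 to 386 CPM, and 0 of 12 were called. Endothelial markers differed by -0.04 in PVT (exact p = 0.548) and by -0.18 in pIC (exact p = 0.0333), with 0 and 1 of 12 called lower.

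Several lists moved with treatment in PVT before adjustment. Ependymal markers differed by -0.68 (exact p = 0.00476), with 8 of 10 called lower and sums of 111 to 146 CPM in control against 65.6 to 96.5 CPM in STZ libraries. Choroid plexus markers differed by -0.74 (exact p = 0.0429), with 0 of 10 called and sums of 3000 to 6070 against 1360 to 3390 CPM. Oligodendrocyte markers differed by -0.35 (exact p = 0.00476), with 3 of 10 called lower. Border macrophage markers differed by 0.35 in PVT (exact p = 0.0333) and 0.39 in pIC (exact p = 0.0143), with 2 of 8 called higher in each region. Markers of T, B and natural killer cells were near the detection limit, with 2 of 11 tested in PVT and 1 in pIC. Their scores differed by -0.48 in PVT (exact p = 0.0476) and -0.33 in pIC (exact p = 0.0286) and rest mostly on markers that failed the filter. Their sums were 2.94 to 12.1 CPM in control against 1.6 to 18.7 CPM in STZ libraries of PVT, and 3.14 to 14.6 against 2.15 to 31.7 CPM in pIC. Of those tested, Cd4 was at 0.432 in PVT and 0.605 in pIC and Trac at -0.339 in PVT, with 0 called. Red cell markers were higher in STZ libraries by 0.58 in pIC (exact p = 0.0429), with 0 of 5 called and sums of 136 to 269 against 215 to 375 CPM. In PVT, fits with a score as covariate called 16 of the 41 genes for choroid plexus, 21 for microglia, 28 for endothelium, 33 for thalamic and 30 for cortical neurons. The median of the 41 was -0.94 with the choroid plexus and -0.99 with the microglia score. Of all genes, the choroid plexus and microglia fits called 62 (0.363%) and 127 (0.744%). The endothelium, thalamic and cortical fits called 396 (2.32%), 1120 (6.56%) and 400 (2.34%) of all genes. Without a score it was 353 (2.07%). In pIC such fits called 13 for endothelium, 19 for microglia, 27 for striatal and 28 for cortical neurons. The medians there were -0.996 with the endothelium and -0.91 with the microglia score. Of all genes, the endothelium and microglia fits in pIC called 70 (0.432%) and 142 (0.877%). The striatal and cortical fits called 377 (2.33%) and 346 (2.14%), against 226 (1.4%) without a score. Every call of the 41 genes in these fits was of a lower level. The part of ependymal, oligodendrocyte, border macrophage, lymphocyte and red cell content in the result was not tested.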

How the data were processed

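The authors deposited raw counts of reads per Ensembl gene for 20 libraries, and 24926 of the 57180 identifiers had no count. Per the labels' protocols the libraries were stranded, poly(A)-selected and sequenced in pairs. The build is GRCm39 (mm39), per the submitters' processing notes. How reads were aligned, counted and assigned to a strand is not given in the sources used here, so antisense and near-identical genes are uncertain. Symbols were matched for 51884 identifiers.

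Groups came from the labels. Counts of 1 region at a time went into edgeR 4.0.16 (R 4.3.3). Low genes were removed by filterByExpr with a minimum count of 10 and a total of at least 15, and libraries were scaled by TMM. STZ was compared with control by robust quasi-likelihood, with Benjamini-Hochberg adjustment over all genes and calls under 0.05. The interaction used all 20 libraries. No 2 libraries of a group agreed within sampling noise (lowest chi-square per degree of freedom 3.79). The tests were also run on counts simulated from edgeR's own model with known changes put in. The outcome is not given here, so it is no support for the results. Alternatives were other scalings, DESeq2 1.42.0, limma-voom (limma 3.58.1), other filters and thresholds, list scores as covariates, a replicate block, and each library left out.

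The 41 genes and all lists were chosen with earlier results of these data known, so the direction of change is not independent support. In each of 9 role groups the 3 genes of highest mean CPM are given in full, and genes that failed the filter or differed from most of their group are named. Of each pathway list up to 3 genes by smallest p in PVT are named. A gene that this rule would name is not reported here.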

Additional observations from a re-analysis of the deposited data

Results flagged for a closer look

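Within each group, a library whose gap to its nearest neighbour was large against the range of the group (Dixon's test at the 95% level) was looked for in 156 combinations of gene and group with at least 20 counts in 1 library. Chance gives about 1 in 20, or 7.8, and 5 were found. Xaf1 stood at 9.97 CPM in pIC control replicate 1, where the next library was at 8.98 CPM. Slfn2 stood at 5.71 CPM in PVT control replicate 3, above the next at 4.33 CPM, and this library is the farthest from the STZ libraries. Lap3 stood at 57.5 CPM in PVT STZ replicate 6, above the next at 52 CPM. Helz2 was flagged in both regions, high at 7.06 CPM in pIC STZ replicate 3 (next 5.56 CPM) and low at 4.58 CPM in PVT STZ replicate 4 (next 5.51 CPM), and was called in neither.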

How the results depend on the processing

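Under no alternative run was any of the 41 genes called higher in either STZ comparison, although many calls were lost under some alternatives. In PVT, against 28 called genes, 17 were called at an adjusted p under 0.01 and 16 with the choroid plexus score as covariate. Also 16 were called without the 4 libraries lowest in thalamic markers (STZ 1, 2 and 3 and control 2). Of all genes these called 0.609%, 0.363% and 0.413%, against 2.07% in the fit that called 28. In pIC, against 26, 13 were called with the endothelium score. Without the 4 libraries lowest in cortical markers (STZ 1, 3 and 4 and control 3) it was 16. Of all genes 0.432% and 0.56% were called there, against 1.4% in the fit that called 26. The covariate of cortical markers and both of these subsets were chosen after seeing the data. Their medians were -0.94 and -1.09 in PVT and -0.996 and -1.03 in pIC, and the calls lost in these 4 fits were at 0.62 to 1.36 times their log2 fold change with all libraries and no score. More of the 41 were called in PVT by all 20 libraries in 1 fit (34), DESeq2 and the thalamus score (33 each) and upper quartile scaling (30). Of all genes these called 3.9%, 5.29%, 6.56% and 2.78%, so calls rose over all genes too. In pIC more were called by limma-voom (29) and DESeq2 (28), with 2.27% and 2.89% of all genes. Leaving out 1 library gave 20 to 29 in PVT and 18 to 26 in pIC. Of all genes it gave 0.83% to 2.02% in PVT and 0.782% to 1.69% in pIC. Of the 28, 9 were called under all 24 alternatives (Isg15, Bst2, Rtp4, Ifi27, Ifi27l2a, Xaf1, Parp9, Dtx3l and Parp12), and of the 26, 12 under all 23. The threshold of 0.01 is not among these 24 and 23. The calls most often lost in PVT were those of Slfn5 and Psme2 (13 of 24 alternatives each), Tor3a (11) and Ifi35 (9). In pIC they were those of Nmi (13 of 23), Shisa5 and Ifi35 (11 of 23 each), Mx2 (11 of 22) and Ifi203 (10 of 23). The interaction called 0 of the 41 genes under each alternative, and the counts between regions stayed within 1.5 times.

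The labels do not state whether equal numbers mark 1 mouse or batch. Within a region, same-numbered control and STZ libraries had correlations of -0.497 to 0.61 in PVT and of -0.101 to 0.611 in pIC. In each region 1 of 4 was best with its own number, and so few pairs cannot exclude a shared batch. With a replicate block 11 of the 41 genes were called in PVT (median -0.96) and 26 in pIC. Of all genes 72 (0.422%) were called in PVT and 240 (1.48%) in pIC. Across regions, correlations were -0.29 to 0.222 in control and -0.126 to 0.483 in STZ mice, where 1 of 4 and 4 of 6 libraries correlated best with their own number, a hint from the data and not the design. The block moved no count of called genes there by over 1.5 times.

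Over all genes, 353 were called in PVT, and DESeq2 gave 904, a threshold of 0.01 gave 104, all 20 libraries in 1 fit 679, the microglia, choroid plexus and thalamus scores 127, 62 and 1120, the 4 libraries left out 70, and 1 library left out 143 to 343. In pIC, of 226, DESeq2 gave 468, limma-voom 367, 0.01 gave 103, the microglia, endothelium, striatal and cortical scores 142, 70, 377 and 346, the 4 libraries left out 90, and 1 library left out 128 to 272. For the interaction DESeq2 gave 4, no filter 1, and 1 library left out 0 to 3. The cause was not tested.

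The sign turned, for genes not called, in PVT alone. Pml was at 0.026 with limma-voom, 0.063 with the replicate block, 0.036 with the microglia and 0.052 with the choroid plexus score, and at -0.097 to 0.046 with 1 library left out, above 0 without control 2, control 4 or STZ 6. Helz2 was at 0.013 with the choroid plexus score, and at -0.112 to 0.043 with 1 library left out, above 0 without control 1 or STZ 4. Znfx1 was at -0.026 with upper quartile scaling, -0.08 and -0.024 with the endothelium and cortical scores, -0.125 without the 4 libraries, and -0.041 to 0.146 with 1 library left out, below 0 without control 3, control 4, STZ 1, STZ 2 or STZ 3. Genes with few counts, such as Mx1 and Phf11b, are limited by depth.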

Other observations

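Control libraries differed among themselves over the 41 genes. Among the PVT controls, replicate 4 held the highest value for 23 of the 41 genes, and among the pIC controls replicate 1 held the highest for 24 and replicate 2 the lowest for 22. Among STZ libraries of pIC, replicate 3 was the highest for 17 genes. The median log2 ratio to the control mean of the region was 0.14 in PVT control replicate 4 and in pIC control replicate 1, and -0.17 in pIC control replicate 2. It was between -1.15 and -0.8 in the 12 STZ libraries.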
